A study of Homo sapiens with 12 samples.

Results

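The genes ST3GAL5, RASGRP3, ABCA8 and LRRC70 were described across cultures that differed in folate supply and in exposure to pemetrexed. They were picked by name for large falls in the low-folate culture, and all 4 were among the 18417 genes with a value, each by 1 probe set that names no other gene. Expression was measured on 12 arrays in EA.hy926, a human hybrid line whose parents were an endothelial cell of the umbilical vein and a cell of the lung carcinoma line A549. Lo cells had been adapted to Medium 199 with 23 nM folic acid, and Hi cells were parallel cultures in the same medium with 9 uM folic acid. Both media held 10% fetal calf serum. The groups were Lo PMX, Lo control, Hi PMX and Hi control, with 3 biological replicates each. PMX stands for pemetrexed, an antifolate drug, given to confluent cells at 0.5 uM for 48 h after 24 h in fresh medium. How often the adaptation was done is not given in the sources used here, so folate level and any other property of the adapted culture cannot be told apart.

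ST3GAL5 encodes the sialyltransferase that makes the ganglioside GM3 from lactosylceramide, the entry step to most complex gangliosides of the cell surface. RASGRP3 encodes an exchange factor that loads Ras and Rap GTPases with GTP and is recruited to membranes by diacylglycerol, the lipid made by phospholipase C downstream of growth factor receptors. ABCA8 encodes a transporter of the ABCA subfamily, whose members move lipids across membranes. LRRC70, also called synleurin, encodes a leucine-rich repeat membrane protein. Folate carries the carbon units used for thymidylate, purine and methionine synthesis, and pemetrexed blocks enzymes of the first and the second of these.

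Promoters are shown to set side by side the sequences at the starts of genes with alike profiles on the arrays. RefSeq promoters (GRCh38.p14) were matched for 3 genes, ST3GAL5 with 5 annotated starts, RASGRP3 with 4 and LRRC70 with 1. The 250 bases before the start are printed 5′ to 3′, with CG dinucleotides in capitals, for the outermost start of ST3GAL5 (chr2:85889035-85889284, minus strand), the outermost and the next start of RASGRP3 (chr2:33436098-33436347 and chr2:33457805-33458054, plus strand) and the start of LRRC70 (chr5:62578569-62578818, plus strand).
ST3GAL5, outermost start: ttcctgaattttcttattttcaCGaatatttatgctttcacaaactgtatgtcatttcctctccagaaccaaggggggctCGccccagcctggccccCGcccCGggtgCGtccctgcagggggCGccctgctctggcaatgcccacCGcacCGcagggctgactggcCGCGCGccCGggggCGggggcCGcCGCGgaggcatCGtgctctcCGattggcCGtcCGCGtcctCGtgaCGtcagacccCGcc
RASGRP3, outermost start: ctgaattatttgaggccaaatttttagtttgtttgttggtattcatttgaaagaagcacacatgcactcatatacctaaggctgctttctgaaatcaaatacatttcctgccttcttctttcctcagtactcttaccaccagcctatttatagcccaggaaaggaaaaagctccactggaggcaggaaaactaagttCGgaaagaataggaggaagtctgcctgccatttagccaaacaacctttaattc
RASGRP3, next start: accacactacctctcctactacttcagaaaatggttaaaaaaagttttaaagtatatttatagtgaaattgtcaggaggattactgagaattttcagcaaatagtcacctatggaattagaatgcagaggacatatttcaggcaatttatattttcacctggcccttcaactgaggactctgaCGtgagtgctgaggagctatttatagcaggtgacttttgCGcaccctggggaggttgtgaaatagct
LRRC70: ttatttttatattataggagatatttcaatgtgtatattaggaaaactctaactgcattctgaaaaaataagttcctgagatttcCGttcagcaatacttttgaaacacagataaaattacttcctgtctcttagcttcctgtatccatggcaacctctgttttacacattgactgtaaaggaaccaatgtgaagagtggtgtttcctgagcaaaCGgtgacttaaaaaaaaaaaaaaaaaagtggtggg

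The ST3GAL5 stretch holds 24 CG dinucleotides, and 23.7% of 35116 RefSeq promoter stretches of the same length hold as many or more. The RASGRP3 stretches hold 1 and 2, and that of LRRC70 holds 2, where 93.9% and 85.3% of promoters hold at least 1 and at least 2, and the median is 11. The count depends on the start, since the other starts of ST3GAL5 hold 29, 38, 2 and 2 and those of RASGRP3 hold 8 and 2. The TATA box letters TATAAA or their reverse complement TTTATA were found in both RASGRP3 stretches and in that of LRRC70, as in 10.7% of all promoter stretches. They lay from base 104 to 99 before the outermost RASGRP3 start and from base 245 to 240 before that of LRRC70. Before the next RASGRP3 start they lay from base 194 to 189, 105 to 100 and 48 to 43. CCAAT or its reverse complement ATTGG was found in the ST3GAL5 stretch from base 37 to 33 and in that of LRRC70 from base 66 to 62, as in 32.0% of all. Matches too depend on the start, since the other starts of RASGRP3 held no TATAAA and not every start of ST3GAL5 held CCAAT. Both were searched on both strands, and the matches do not overlap.

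Before the results, 2 arrays had to be set apart. Across all genes, which are not independent replicates, the array labelled Hi control replicate 3 had a mean r of 0.997 against the Lo controls and of 0.990 against the remaining Hi controls. The array labelled Lo control replicate 3 had a mean r of 0.992 against the remaining Lo controls and of 0.997 against the Hi controls. Whether the labels of these 2 arrays were exchanged is not given in the sources used here. If they were, each control mean over all 12 arrays would mix both folate levels. Both kept their labels in the fit to all 12 arrays, and results that rest on controls are also given for the 10 arrays without them. On the deposited log2 scale the medians of the arrays ran between 7.24 and 7.33. Precision is set by how few arrays each group holds, and no detection calls were used here. As a mean, endothelial markers followed the order of the 4 genes, although not each of them did. The mean log2 level of 12 endothelial markers was 10.12 to 10.25 on Lo PMX arrays, 10.50 to 10.53 on Lo controls, 11.10 to 11.29 on Hi PMX arrays and 11.11 to 11.30 on Hi controls, without the arrays set apart. Those of 10 epithelial and lung carcinoma markers were 8.22 to 8.24, 8.17 to 8.28, 8.08 to 8.18 and 8.11 to 8.11 in the same order. The ranges were 7.74 to 7.81, 7.63 to 7.74, 7.57 to 7.70 and 7.62 to 7.68 for 8 fibroblast and smooth muscle markers, and 7.28 to 7.40, 7.40 to 7.48, 7.34 to 7.43 and 7.37 to 7.40 for 7 leukocyte markers. Fewer cells of a kind and less RNA per cell cannot be told apart in bulk RNA.

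All 4 genes stood at 3 levels. They were highest in Hi cells with or without pemetrexed, lower in Lo control cells and lowest in Lo cells given pemetrexed. These levels, on the log2 scale, are what the genes were chosen by, and the folate differences in them are a description.

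ST3GAL5 measured 8.19, 8.31 and 8.27 on the Lo PMX arrays, against 9.29, 9.36 and, on the array labelled replicate 3, 11.30 in Lo controls. In Hi cells it measured 11.39, 11.49 and 11.24 on the PMX arrays, against 11.47, 11.38 and, on the array labelled replicate 3, 9.09 in controls. Every Lo PMX array lay below every Lo control array, and the Hi PMX arrays overlapped the Hi controls. The array labelled Lo control replicate 3 sat within the Hi PMX range, and that labelled Hi control replicate 3 sat just below the other Lo controls.

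RASGRP3 measured 6.93, 6.92 and 7.24 on the Lo PMX arrays, against 7.74, 7.67 and 9.90 in Lo controls, the last on the array labelled replicate 3. In Hi cells it measured 9.87, 9.86 and 9.82 on the PMX arrays, against 10.14, 9.60 and 7.55 in controls, the last again on the array labelled replicate 3. Its Hi controls 1 and 2 differed most among the 4 genes (SD 0.38, against 0.01 to 0.16 for the others), and the 3 Hi PMX arrays lay between them. The Lo PMX arrays again lay below all Lo controls.

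ABCA8 measured 6.45, 6.41 and 6.58 on the Lo PMX arrays, against 7.52, 7.61 and 9.40 in Lo controls. In Hi cells it measured 9.16, 9.36 and 9.36 on the PMX arrays, against 9.41, 9.18 and 7.41 in controls, the last value of each control group being from the array labelled replicate 3. The order of the groups was that of ST3GAL5, with no overlap in Lo cells and overlap in Hi cells.

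LRRC70 measured 5.13, 5.34 and 5.08 on the Lo PMX arrays, against 5.87, 6.18 and 7.81 in Lo controls. In Hi cells it measured 7.81, 8.04 and 7.86 on the PMX arrays, against 7.88, 7.89 and 5.95 in controls, with replicate 3 given last. It had the widest spread of the 4 genes between Lo controls 1 and 2 (SD 0.22, against 0.04 to 0.06), yet its highest Lo PMX array lay 0.53 below the lowest Lo control. For the other 3 genes that gap was 0.98 (ST3GAL5), 0.43 (RASGRP3) and 0.95 (ABCA8). Such a complete separation downwards in Lo cells was seen for 14.1% of all genes with 12 arrays and for 17.8% with 10.

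**Figure D1:**
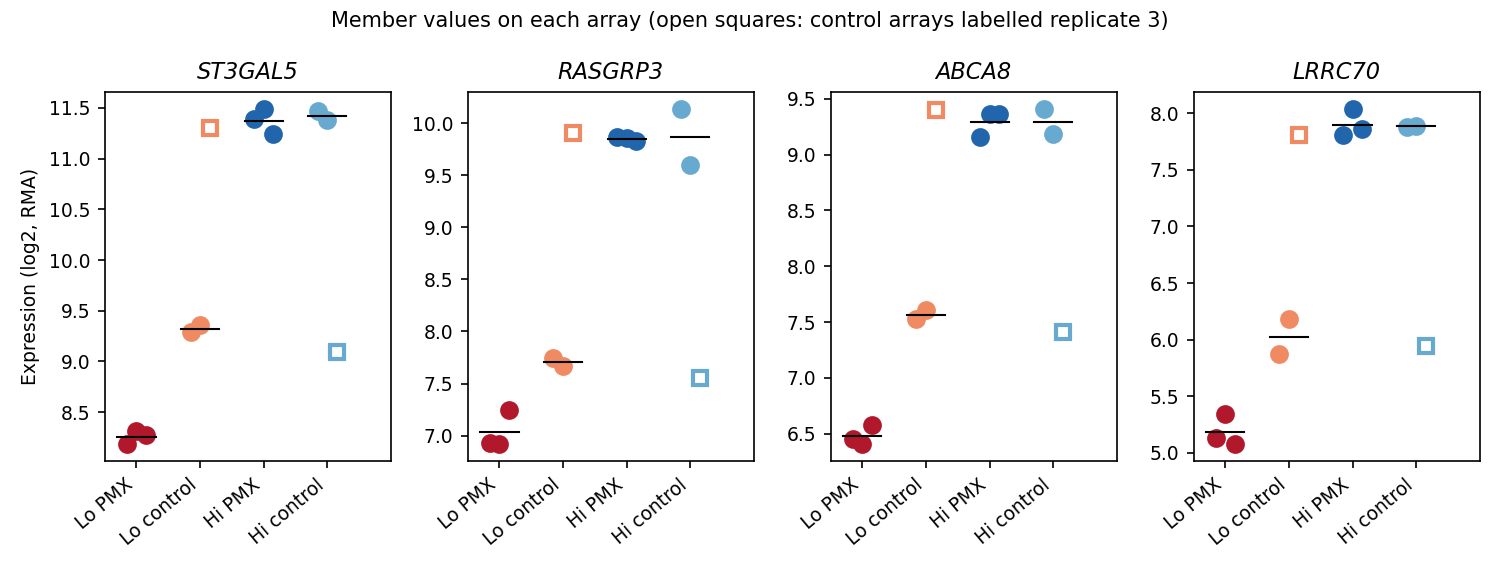
Log2 expression of the 4 genes (vertical axes, which differ between panels) on each array of the Lo PMX, Lo control, Hi PMX and Hi control groups. Points are arrays, open squares are the control arrays labelled replicate 3, and lines are means without them. In each panel the Lo PMX arrays are lowest, and each open square sits at the level of the opposite folate group's controls.

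The folate difference was largest in treated cells. With all 12 arrays, Lo PMX minus Hi PMX was -3.12 ± 0.58 (SE) for ST3GAL5, -2.82 ± 0.61 for RASGRP3, -2.81 ± 0.50 for ABCA8 and -2.72 ± 0.51 for LRRC70, which is 8.69-fold, 7.06-fold, 7.04-fold and 6.57-fold lower. By size these falls ranked 3, 5, 6 and 7 among the 18417 genes. Neither treated group holds an array set apart, so these differences are the same with 10 arrays, with errors of 0.08 to 0.13.

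In control cells the folate difference depended on the arrays labelled replicate 3. With all 12 arrays, Lo control minus Hi control was -0.66 ± 0.58 for ST3GAL5, -0.66 ± 0.61 for RASGRP3, -0.49 ± 0.50 for ABCA8 and -0.62 ± 0.51 for LRRC70. With 10 arrays it was -2.10 ± 0.09, -2.16 ± 0.15, -1.73 ± 0.11 and -1.86 ± 0.12 in the same order, or 4.28-fold, 4.47-fold, 3.31-fold and 3.63-fold lower. Those falls ranked 5, 4, 12 and 8 among all genes.

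The 4 genes stood lower still in Lo cells given pemetrexed than in Lo controls. They were picked for their levels in the Lo culture, which these arrays hold, so this step is a description with no test. With 10 arrays Lo PMX minus Lo control was -1.07 ± 0.09 (SE) for ST3GAL5, -0.68 ± 0.14 for RASGRP3, -1.09 ± 0.10 for ABCA8 and -0.84 ± 0.11 for LRRC70, or 2.10-fold, 1.60-fold, 2.13-fold and 1.79-fold lower. These falls ranked 105, 299, 98 and 192 among the 18417 genes, further down the order than the falls between folate levels with the same 10 arrays. With 12 arrays they ranked 12, 44, 15 and 43, against 6, 7, 16 and 10 for the falls between Lo and Hi controls. With 12 arrays the same differences were -1.73 ± 0.58, -1.41 ± 0.61, -1.70 ± 0.50 and -1.43 ± 0.51, larger because the array labelled Lo control replicate 3 raises the Lo control mean. In the fit over all genes 4 of 4 lay past the threshold of limma with 10 arrays, where 5.74% of all genes were called lower and 5.21% higher, and 1 of 4 (ABCA8) with 12, where 5.14% were called lower and 5.60% higher. Since the genes were chosen on these levels, nothing is read from those counts.

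In Hi cells, a contrast that shares the Hi arrays with the folate differences, none of the 4 genes passed with 12 or 10 arrays, where limma called 0% of all genes (0 of 18417, with 266 and 335 at an unadjusted p under 0.05). With 10 arrays Hi PMX minus Hi control was -0.05 for ST3GAL5 (95% interval -0.23 to 0.14), -0.02 for RASGRP3 (-0.32 to 0.29), -0.0013 for ABCA8 (-0.21 to 0.21) and 0.02 for LRRC70 (-0.23 to 0.26). The falls in Lo cells have errors of their own and the genes were chosen on those levels, so the intervals were not tested against them. With 12 arrays, where Hi control replicate 3 stands at the Lo level, the same differences were 0.73 ± 0.58, 0.75 ± 0.61, 0.63 ± 0.50 and 0.66 ± 0.51, and the limma adjusted p was 0.9996 for each.

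The change in Lo cells minus that in Hi cells, the interaction, rests on the same levels and is likewise a description. With 10 arrays it was -1.02 ± 0.12 for ST3GAL5, -0.66 ± 0.20 for RASGRP3, -1.09 ± 0.14 for ABCA8 and -0.86 ± 0.16 for LRRC70. With 12 arrays it was -2.46 ± 0.82, -2.16 ± 0.87, -2.32 ± 0.71 and -2.10 ± 0.71 in the same order. In the fit over all genes 3 of 4 lay past the threshold of limma with 10 arrays, all but RASGRP3, where 2.14% of all genes were called in that direction, 2.02% in the other and 4.16% in either. With 12 arrays 0 of 4 did, where 2.24% were called in that direction, 2.57% in the other and 4.81% in either, and nothing is read from these counts.

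**Figure D2:**
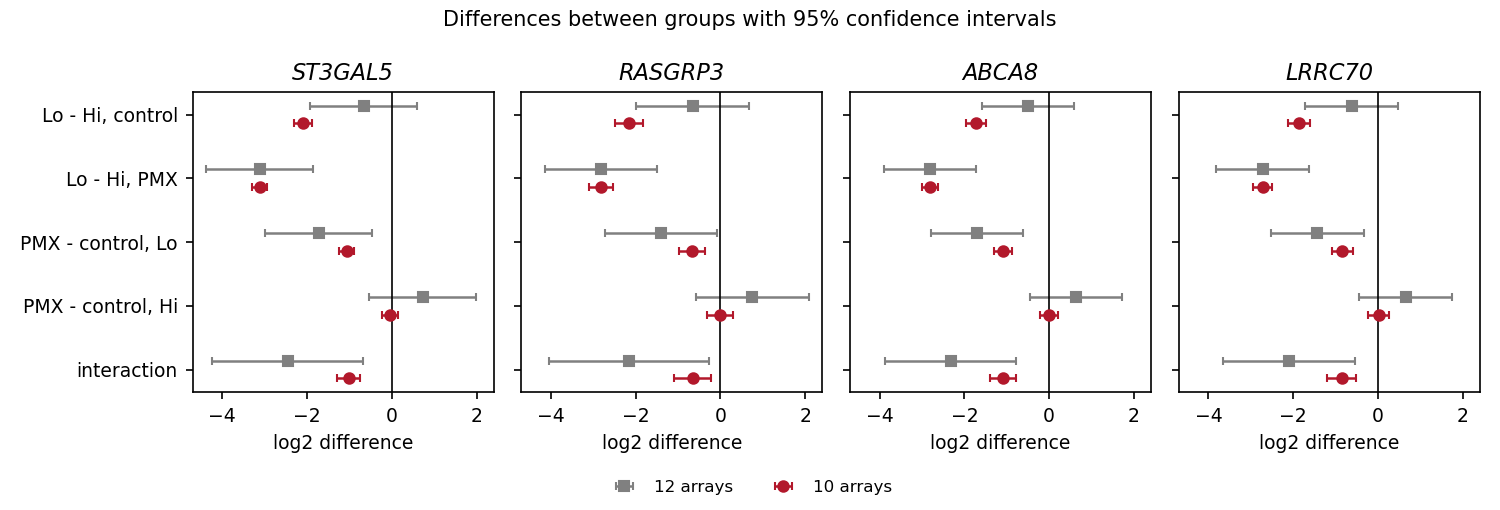
Log2 differences (horizontal axes) for the 4 genes in 5 comparisons, with 95% confidence intervals. Grey squares are the fit to 12 arrays and red circles the fit to 10. The red circles for pemetrexed in Lo cells lie to the left of those for Hi cells. The genes were chosen for their levels in the Lo culture, so the place of these intervals is a description with no test.

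The pemetrexed step was thus smaller than the folate difference when the arrays set apart were left out. With 10 arrays the change with pemetrexed in Lo cells came to 34.2% of the Lo PMX minus Hi PMX difference for ST3GAL5, 24.0% for RASGRP3, 38.6% for ABCA8 and 30.9% for LRRC70, all on the log2 scale. With 12 arrays the same shares were 55.4%, 49.9%, 60.3% and 52.8%. The difference between these splits lies in the Lo control mean alone, since the treated groups are the same. On the Lo PMX arrays ABCA8 (6.41 to 6.58) and LRRC70 (5.08 to 5.34) lay below the array medians of 7.24 to 7.33. Whether array background limits how far their values can fall was not tested.

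The genes whose profile over the arrays was most like that of the 4 are named next. Likeness was measured as Pearson's r over 12 and over 10 arrays, given without a test because the arrays fall into 3 clusters and share one normalization. MMRN1, which encodes the endothelial and platelet protein multimerin, was the closest to ST3GAL5 (r = 0.998 over 12 and 0.999 over 10 arrays) and to LRRC70 (0.998 over both), and with 12 arrays also to ABCA8 (0.995). CALCRL, the receptor gene for adrenomedullin, was among the 5 closest to every one of the 4 with 12 arrays (0.993 to 0.996). RESF1 was the closest to RASGRP3 with 10 arrays (0.9996), followed by the homeobox gene MEIS2 (0.997), the receptor gene TGFBR2 (0.996), THSD7A (0.995) and BMERB1 (0.995). MEIS2 led RASGRP3's list with 12 arrays (0.997), ahead of RESF1, THSD7A, CALCRL and HTR1D. ZNF521 was the closest to ABCA8 with 10 arrays (0.997), then PTCHD4, SFXN3, MMRN1 and SMAD1. The other neighbours of ST3GAL5 in profile were SNRK, BIN1, the adhesion gene PECAM1, ZNF521 and the kinase gene RPS6KA2. Those of LRRC70 were KLHDC8B, FAM43A and ITPKB with either set of arrays, and SMAD1, RPS6KA2 and ZNF521 were near ABCA8 with 12. Among themselves the 4 genes correlated at r = 0.985 to 0.997 over 12 arrays.

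Genes alike in profile differed in size of change. With 10 arrays the folate difference in control cells was -2.39 ± 0.12 for MMRN1 and -2.48 ± 0.12 for CALCRL, and the pemetrexed difference in Lo cells was -1.08 ± 0.11 for each. MMRN1 measured 6.96, 7.23 and 7.06 on Lo PMX arrays, against 8.05, 8.28 and, on the array labelled replicate 3, 10.58 on Lo controls. RESF1, closest in shape to RASGRP3, differed by -0.69 ± 0.08 between Lo and Hi controls and by -0.24 ± 0.07 with pemetrexed in Lo cells. These genes were chosen by likeness on the same arrays, so their differences carry no test.

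Most genes beside the 4 on their chromosomes did not pass between Lo and Hi control cells, and those that did moved in both directions. They also moved less than the 4, but the 4 were picked for large falls, so nothing is read from that. In the order of RefSeq genes (GRCh38.p14), the 3 nearest measured genes on each side gave 24 neighbours, and with 10 arrays 7.17% of all genes were called between Lo and Hi control cells, 3.50% lower and 3.67% higher in Lo. Of the 24, 2 were lower (ATOH8 and ABCA6) and 2 higher (FAM98A and CRIM1). For all 12 arrays 0 of the 24 were called in that contrast, where 0% of all genes were. Between Lo PMX and Hi PMX 3 were higher and 3 lower with 12 arrays, and 3 higher and 4 lower with 10. There 22.3% and 27.7% of all genes were called in either direction. ST3GAL5 and RASGRP3 lie on chromosome 2, ABCA8 on 17 and LRRC70 on 5. Next to ST3GAL5, the transcription factor gene ATOH8 differed by -0.67 ± 0.11 between Lo and Hi control cells with 10 arrays (limma adjusted p = 0.00221) and fell with pemetrexed in Lo cells by 0.64 ± 0.10 (0.00113), and with all 12 arrays by 0.85 ± 0.18 (0.00853). On the other side of ST3GAL5 none passed between Lo and Hi controls, although POLR1A and PTCD3 were called between Lo PMX and Hi PMX. POLR1A, a subunit of RNA polymerase I, differed by 0.31 ± 0.09 between Lo and Hi controls (limma adjusted p = 0.0715), PTCD3 by 0.15 ± 0.09 (0.480) and SNORD94 by -0.18 ± 0.16 (0.678). GNLY (-0.01 ± 0.10) and SFTPB (-0.08 ± 0.09), on the side of ATOH8, did not pass.

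Around RASGRP3, 2 neighbours rose in Lo control cells. FAM98A stood 0.42 ± 0.10 higher (limma adjusted p = 0.0242) and CRIM1, a membrane protein that binds growth factors of the BMP group, 0.56 ± 0.07 higher (0.000619), both in Lo against Hi controls with 10 arrays. CRIM1 then fell with pemetrexed in Lo cells by 0.53 ± 0.07 (limma adjusted p = 0.000328), so that its folate and pemetrexed steps opposed each other. With 12 arrays its change with pemetrexed was -0.36 ± 0.14 and did not pass (limma adjusted p = 0.135). LTBP1 (-0.18 ± 0.09), TTC27 (0.06 ± 0.15), BIRC6 (-0.16 ± 0.09) and MYADML (-0.16 ± 0.11) did not pass between Lo and Hi controls.

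ABCA8 lies in a row of related genes, ABCA9, ABCA6 and ABCA10, and their differences between Lo and Hi controls were smaller. Their highest values on any array were 6.12 (ABCA9), 5.20 (ABCA6) and 5.06 (ABCA10), below the array medians of 7.24 to 7.33. Whether array background limits how far these values can fall was not tested. With 10 arrays ABCA6 fell by 0.55 ± 0.13 (limma adjusted p = 0.0262), ABCA9 stood at -0.43 ± 0.12 (0.0585) and ABCA10 at -0.13 ± 0.10 (0.603). None of the 3 passed for pemetrexed in Lo cells, at 0.02 ± 0.12, -0.13 ± 0.11 and 0.07 ± 0.09 with 10 arrays and -0.08 ± 0.17, -0.24 ± 0.17 and 0.01 ± 0.09 with 12. Between Lo PMX and Hi PMX ABCA9 was called lower with 12 arrays, and both ABCA9 and ABCA6 with 10. On the other side FAM20A (-0.06 ± 0.11), WIPI1 (0.05 ± 0.11) and PRKAR1A (-0.20 ± 0.11) did not pass between Lo and Hi controls. LRRC70 lies wholly within the span of IPO11, which encodes a nuclear import receptor, and IPO11 stood at 0.17 ± 0.10 between Lo and Hi controls and at -0.26 ± 0.09 with pemetrexed in Lo cells (limma adjusted p = 0.426 and 0.0926). DIMT1 (0.02 ± 0.11), KIF2A (-0.14 ± 0.13), HTR1A (0.13 ± 0.11), RNF180 (0.11 ± 0.14) and RGS7BP (0.06 ± 0.08) did not pass between Lo and Hi controls either.

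**Figure D3:**
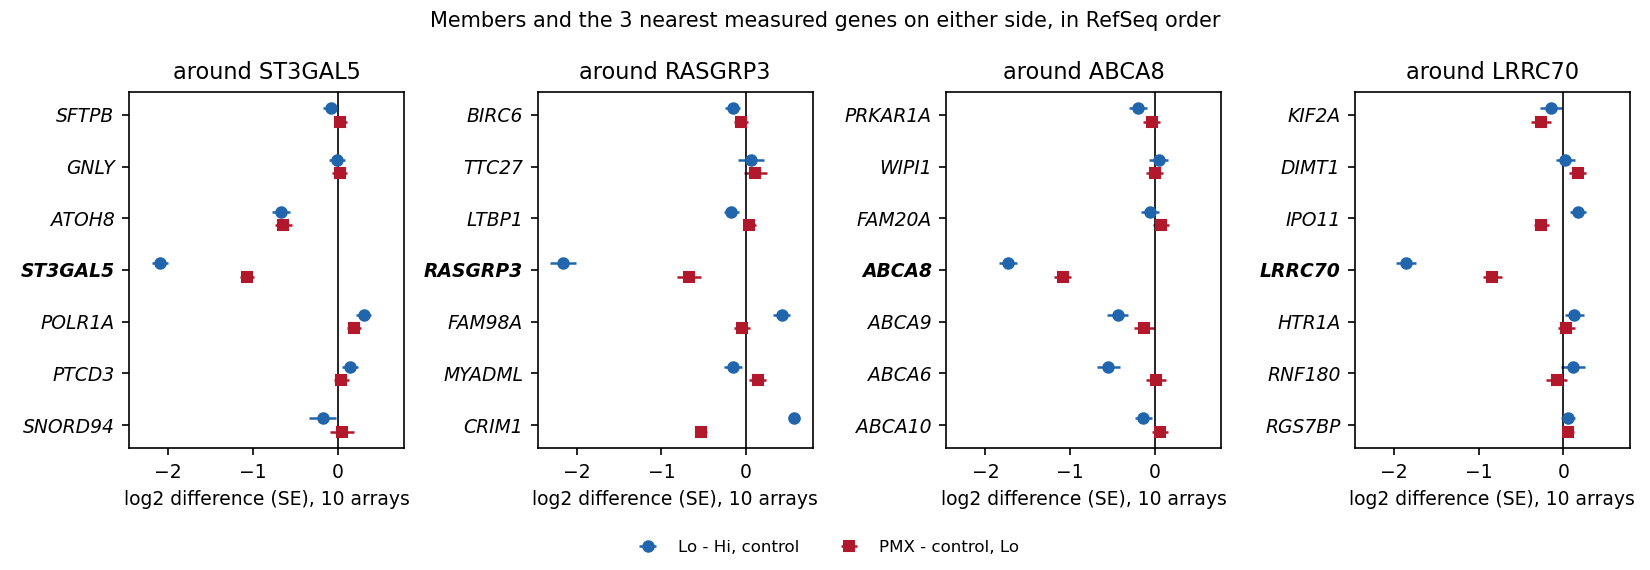
Log2 differences (horizontal axes, with SE, 10 arrays) of the 4 genes and of 3 measured genes on either side of each in RefSeq order, for Lo against Hi control cells (blue circles) and for pemetrexed in Lo cells (red squares). Each of the 4 genes, in bold, was picked for a large fall, so its place further to the left than its neighbours is no test. Of the neighbours ATOH8 has both values below -0.6.

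Among the other genes of ganglioside synthesis 2 were called with pemetrexed in Lo cells, and more, mostly lower, between Lo PMX and Hi PMX. UGCG alone was called higher in Lo cells. Of 20 further measured genes of 21 listed, 0 rose and 2 fell with pemetrexed in Lo cells, with 12 and with 10 arrays, where 5.14% and 5.74% of all genes fell and 5.60% and 5.21% rose. The list's median change was -0.06 and -0.04, against 0.02 and 0.03 for all genes. B4GALNT1, which extends GM3 to GM2, fell by 0.47 ± 0.14 with 12 arrays (limma adjusted p = 0.0462) and by 0.39 ± 0.10 with 10 (0.0244). ST6GALNAC3, a sialyltransferase acting on gangliosides further down, fell by 0.81 ± 0.19 and 0.63 ± 0.16 (limma adjusted p = 0.0141 and 0.0237). UGCG, which makes the glucosylceramide from which the pathway starts, was 0.88 ± 0.15 higher in Lo than in Hi control cells with 10 arrays (limma adjusted p = 0.00329). It measured 11.26, 11.07 and 11.42 on Lo PMX arrays and 11.45 and 11.42 on Lo controls 1 and 2, against 10.25, 10.45 and 10.62 on Hi PMX arrays and 10.36 and 10.74 on Hi controls 1 and 2. Its Lo PMX and Hi PMX arrays do not overlap (0.81 ± 0.26 with 12 arrays and ± 0.12 with 10, limma adjusted p = 0.0401 and 0.000304). In that contrast of treated cells 1 gene of the list was higher and 6 were lower with 12 arrays (B4GALT6, B4GALNT1, ST3GAL1, ST3GAL2, ST6GALNAC3 and ST6GALNAC6, from -1.04 to -0.41), where 22.3% of all 18417 genes were called, 2028 lower and 2079 higher. With 10 arrays 1 was higher and 8 were lower, where 27.7% of all genes were called, 2574 lower and 2532 higher. ST3GAL1, a sialyltransferase of the same family as ST3GAL5, was also lower between Lo and Hi controls with 10 arrays (-0.51 ± 0.10, limma adjusted p = 0.00921). The lactosylceramide synthases B4GALT5 and B4GALT6, which make ST3GAL5's substrate, stood at -0.22 ± 0.08 and -0.32 ± 0.13 between Lo and Hi controls with 10 arrays and did not pass (limma adjusted p = 0.158 and 0.213). ST8SIA1, which turns GM3 into GD3, did not pass either (0.17 ± 0.09, limma adjusted p = 0.367).

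Of 14 measured genes of glycosphingolipid breakdown (17 listed), 1 rose and 1 fell with pemetrexed in Lo cells with 12 arrays (where 5.60% of all genes rose and 5.14% fell). With 10 arrays 1 rose and 0 fell (where 5.21% rose and 5.74% fell), and the medians were 0.02 and 0.05. The sialidase gene NEU1 rose by 0.73 ± 0.10 with 12 arrays and 0.70 ± 0.11 with 10 (limma adjusted p = 0.000785 and 0.00144). The galactosidase gene GLB1 fell by 0.27 ± 0.07 with 12 arrays (limma adjusted p = 0.0297) and stood at -0.26 ± 0.08 with 10 (0.0609).

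No other measured RASGRP gene passed the test. RASGRP1 measured at most 4.97 and RASGRP4 at most 6.96, below the array medians of 7.24 to 7.33, and RASGRP2 measured 7.15 to 7.48. Whether array background limits how far their values can fall was not tested. RASGRP1 (-0.07 ± 0.11), RASGRP2 (0.07 ± 0.08) and RASGRP4 (0.10 ± 0.12) did not pass between Lo and Hi controls with 10 arrays, nor with pemetrexed in Lo cells (0.04 ± 0.10, 0.03 ± 0.07 and -0.05 ± 0.11). Of 18 further measured Ras and Rap exchange factors and GTPase-activating proteins (25 listed), 0 rose and 1 fell with pemetrexed in Lo cells with 12 arrays (where 5.60% of all genes rose and 5.14% fell), and 0 rose and 2 fell with 10 (where 5.21% rose and 5.74% fell). The list's median was -0.07 and -0.03. RAPGEF1, an exchange factor for Rap, fell by 0.56 ± 0.15 with 12 arrays and 0.39 ± 0.08 with 10 (limma adjusted p = 0.0293 and 0.00784), and RAPGEF5, of the same class, by 0.53 ± 0.12 with 10 (0.0129). RAPGEF5 was also lower in Lo than in Hi controls with 10 arrays, by -1.25 ± 0.13 (limma adjusted p = 0.00013). In that contrast 0 of the 18 were higher and 3 lower with 10 arrays, where 3.67% and 3.50% of all genes were. With 12 arrays 0 were called. Between Lo PMX and Hi PMX 0 were higher, and 3 were lower with 12 arrays and 7 with 10. There 2028 and 2574 of all 18417 genes were called lower.

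Among Ras and Rap GTPases and genes of diacylglycerol signalling, 3 rose and 1 fell of 28 measured (30 listed) with pemetrexed in Lo cells with 12 arrays (where 5.60% of all genes rose and 5.14% fell), and 2 rose and 1 fell with 10 (where 5.21% rose and 5.74% fell). The median was 0.02 in both. HRAS rose by 0.50 ± 0.08 with 12 arrays and 0.47 ± 0.08 with 10 (limma adjusted p = 0.00221 and 0.00318) and MRAS by 0.64 ± 0.13 and 0.48 ± 0.08 (0.00763 and 0.0018), both Ras-type GTPases. RAP2B rose by 0.32 ± 0.09 with 12 arrays only (limma adjusted p = 0.0313, and 0.0556 with 10). PRKCH, a diacylglycerol-responsive protein kinase C, fell by 0.81 ± 0.17 and 0.69 ± 0.09 (limma adjusted p = 0.00761 and 0.000397).

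In the ABCA subfamily some members were called higher with pemetrexed in Lo cells, and none of the others lower. Of 11 further measured members of 12 listed, 4 rose and 0 fell with 12 arrays (where 5.60% of all genes rose and 5.14% fell), and 2 rose and 0 fell with 10 (where 5.21% rose and 5.74% fell), with medians of 0.11 and 0.13. ABCA12, a lipid transporter of skin keratinocytes, rose by 2.10 ± 0.41 with 12 arrays and 1.60 ± 0.10 with 10 (limma adjusted p = 0.00607 and 4.05e-06). ABCA1, which exports cholesterol to apolipoprotein A-I, rose by 1.05 ± 0.15 and 0.89 ± 0.10 (limma adjusted p = 0.000967 and 0.000178). ABCA7 (0.42 ± 0.12, limma adjusted p = 0.0347) and ABCA13 (0.25 ± 0.07, 0.0427) rose with 12 arrays and did not pass with 10 (0.0902 and 0.0552). ABCA5 (-0.06 ± 0.12 with 12 arrays and 0.04 ± 0.09 with 10) did not pass. Of 10 measured other lipid and sterol transporters (11 listed), 2 rose and 2 fell with 12 arrays (where 5.60% of all genes rose and 5.14% fell), and 1 rose and 2 fell with 10 (where 5.21% rose and 5.74% fell), with medians of -0.01 and 0.03. ABCB1 (-0.63 ± 0.17) and ABCC1 (-0.33 ± 0.10) fell, and ABCD3 (0.58 ± 0.14) and ABCG4 (0.39 ± 0.09) rose, with limma adjusted p from 0.0141 to 0.0424 with 12 arrays. With 10 arrays ABCB1 (-0.52 ± 0.11) and ABCC1 (-0.26 ± 0.07) fell and ABCG4 (0.40 ± 0.09) rose (limma adjusted p from 0.00919 to 0.0414), and ABCD3 did not pass (0.42 ± 0.12, 0.0508).

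**Figure D4:**
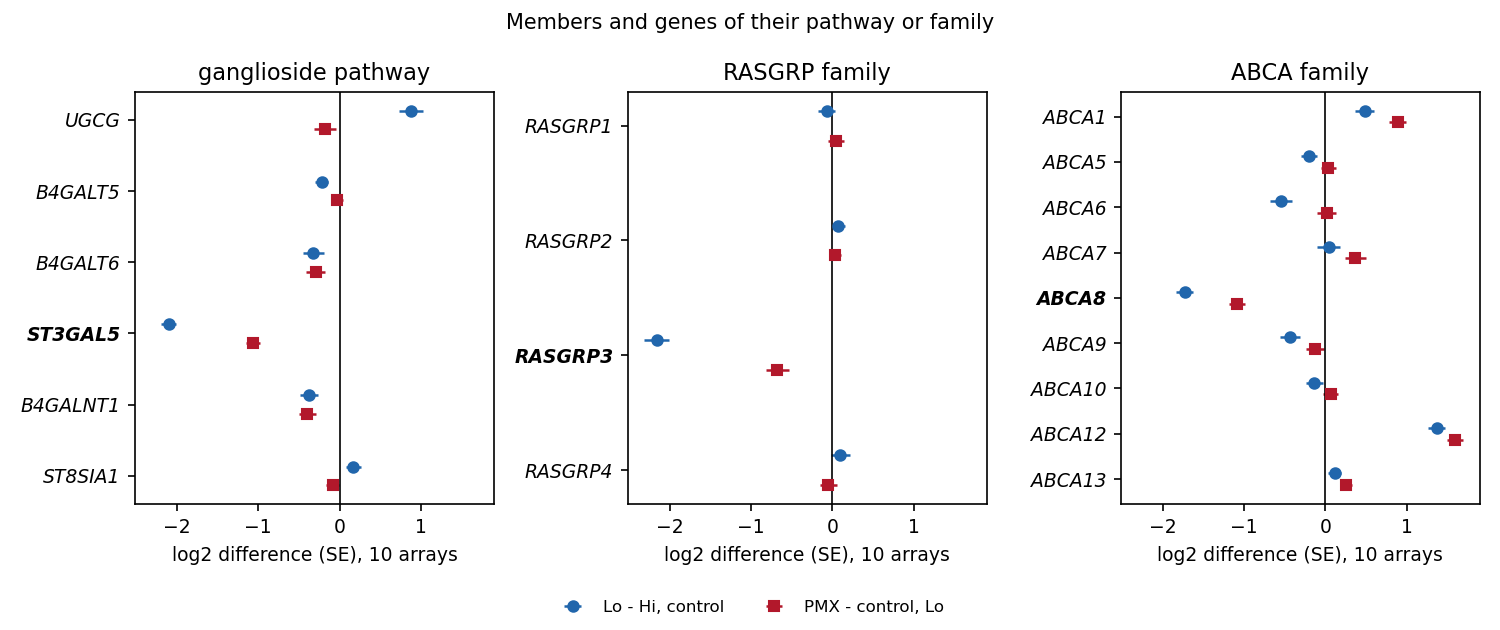
Log2 differences (horizontal axes, with SE, 10 arrays) of ST3GAL5, RASGRP3 and ABCA8, in bold, and of genes of their pathway or family, for Lo against Hi control cells (blue circles) and for pemetrexed in Lo cells (red squares). UGCG is higher in Lo controls (0.88), RASGRP1, RASGRP2 and RASGRP4 lie near 0, and ABCA1 and ABCA12 lie to the right of 0 in both comparisons.

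Of 41 further measured genes of leucine-rich repeat membrane proteins (42 listed), 2 rose and 2 fell with pemetrexed in Lo cells with 12 arrays (where 5.60% of all genes rose and 5.14% fell), and 2 rose and 4 fell with 10 (where 5.21% rose and 5.74% fell), with medians of 0.04 and 0.02. LRRC15 (0.48 ± 0.12, limma adjusted p = 0.0194) and LRRTM4 (0.42 ± 0.10, 0.0182) rose with 12 arrays. The volume-regulated anion channel subunits LRRC8C (-0.64 ± 0.15, limma adjusted p = 0.0151) and LRRC8D (-0.31 ± 0.07, 0.0157) fell. The 4 calls were also made with 10 arrays, at 0.39 ± 0.10, 0.40 ± 0.11, -0.51 ± 0.10 and -0.36 ± 0.08 in the same order, where the Toll-like receptor gene TLR6 and the neuronal gene SLITRK4 fell as well. Between Lo and Hi controls 2 of the 41 were higher and 7 lower with 10 arrays, where 3.67% and 3.50% of all genes were. With 12 arrays 0 were called. Between Lo PMX and Hi PMX 4 were higher with either set, and 10 were lower with 12 arrays and 11 with 10. There 2028 and 2574 of all 18417 genes were called lower, and 2079 and 2532 higher.

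Of the 12 endothelial markers 0 rose and 5 fell with pemetrexed in Lo cells with 12 arrays (where 5.60% of all genes rose and 5.14% fell), and 0 rose and 6 fell with 10 (where 5.21% rose and 5.74% fell), with medians of -0.62 and -0.33. Between Lo and Hi controls 0 were called with 12 arrays and 6 lower with 10, where 0% and 3.50% of all genes were called lower. Between Lo PMX and Hi PMX 11 were lower and 0 higher with either set of arrays (median -0.87). There 2028 (12 arrays) and 2574 (10 arrays) of all 18417 genes were called lower. CLDN5, a tight junction gene, was called in none of these contrasts and stood at 0.16 ± 0.09 and 0.17 ± 0.08 with pemetrexed in Lo cells with 12 and 10 arrays. The transcription factor gene ERG fell by 0.69 ± 0.11 with 12 arrays and 0.59 ± 0.07 with 10 (limma adjusted p = 0.00138 and 0.000209). TEK, the angiopoietin receptor gene, fell by 0.65 ± 0.09 and 0.62 ± 0.08 (limma adjusted p = 0.000579 and 0.000394). PECAM1, one of these markers, is also among the 5 genes closest to ST3GAL5 in profile. Of the epithelial markers and of the fibroblast and smooth muscle markers 0 rose and 0 fell with pemetrexed in Lo cells with either set of arrays, and of the 7 leukocyte markers measured (8 listed) 0 rose and 1 fell, the lysozyme gene LYZ. The part of these marker shifts in the falls of the 4 genes was not tested.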

How the data were processed

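RNA of each EA.hy926 culture went, after RNeasy extraction and biotin labelling, onto an Affymetrix array of its own, per the labels' protocols. The authors deposited log2 expression values per probe set, which Partek 6.5 made by RMA according to the submitters' processing notes. The settings of RMA are not given in the sources used here. The table held 33297 probe sets on 12 arrays. Genes were named from GEO's annotation of the array, with symbols updated by Entrez identifier through RefSeq (19429 of 19460 found). A gene symbol stood alone for 19460 probe sets, 1754 carried more than 1 symbol and 12083 were unnamed here. The brightest probe set by mean over 12 arrays was used for the 769 genes with several, which gave 18417 genes.

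All genes were fitted together, group means only, with limma 3.58.1 in R 4.3.3 (8 residual degrees of freedom with 12 arrays, 6 with 10), without a filter or further normalization. Tests were two-sided. Calls required a p under 0.05 after Benjamini-Hochberg adjustment over all genes in the contrast. Every adjusted p printed is limma's. The folate, pemetrexed-in-Lo and interaction values of the 4 genes carry no p, since the genes were chosen on those levels. Values after ± are standard errors of the model. Differences are Lo minus Hi or pemetrexed minus control. The replicates are biological replicates of 1 line per the labels, and the p-values measure only the spread between them. The fit was tested on simulated data.

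Same-numbered arrays of different groups deviated together in the 10 arrays, where all 13 pairs correlated above 0.1 across genes (0.115 to 0.543), but not in the 12, where 11 of 18 did (-0.656 to 0.514). The pairing comes from the replicate numbers in the labels.

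The 4 genes, the gene lists and the alternatives were chosen with earlier results of these data known. Besides the 4, the text names their 3 measured neighbours on either side, their 5 nearest genes by correlation, a fixed set of close relatives, and from each list up to 4 genes per direction with the smallest p among those called with pemetrexed in Lo cells. ERG, TEK, PECAM1, EPCAM, KRT7, KRT8, ACTA2 and CD68 among the markers were named after their values were seen. So were CLDN5, ST3GAL1, ST3GAL2, ST6GALNAC6, SLITRK4 and TLR6.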

Additional observations from a re-analysis of the deposited data

How the results depend on the processing

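The folate difference in treated cells kept its size in every alternative run, with a median over the 4 genes of -2.82 and -2.89 to -2.78 when single arrays were left out. That in control cells had a median of -0.64, -1.98 without both controls labelled replicate 3 (with or without the replicate block), and -1.35 to -0.19 without single arrays. The number of the 4 genes past the threshold with pemetrexed in Lo cells, a description since they were chosen on these levels, was 1 in the 12-array fit. It was 4 without both controls, with or without the replicate block, 0 with the replicate block on all 12 arrays, after quantile normalization or with ordinary variances, and 0 to 3 without single arrays. For the interaction it was 0, 3 without both controls, 4 with the replicate block added to that, and 0 to 1 without single arrays (ABCA8, without Hi control replicate 1). In Hi cells it was 0 throughout, and the difference changed sign without both controls to -0.0467 for ST3GAL5, -0.0182 for RASGRP3 and -0.0013 for ABCA8, and with the replicate block added to -0.0174, -0.0653 and -0.0425. Without single arrays it ran from -0.0467 to 1.14 for ST3GAL5, -0.0182 to 1.27 for RASGRP3 and -0.0013 to 0.997 for ABCA8. Over all genes 1978 were called with pemetrexed in Lo cells (1262 with ordinary variances, 3385 with the replicate block and 10 arrays, 1170 to 2563 without single arrays) and 886 in the interaction (291, 1738 and 443 to 956). Low folate gave 0 calls in control cells (1320 without both controls, 2422 with the replicate block added, 0 without any single array, and 387 at an unadjusted p under 0.05 with 12 arrays) and 4107 in treated cells (6554 with the replicate block and 10 arrays, 2855 to 4607 without single arrays). The lowest counts in Lo cells and in the interaction came without Lo PMX replicate 3. The cause of these moves was not tested. Other settings, a filter on dim genes and the mean of a gene's probe sets, moved none of these counts past 1.5 times.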
